A study of Homo sapiens with 6 samples.

Results

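Immunoglobulin-type adhesion molecules and EPCAM are described here as a group of 10 genes: NFASC, L1CAM, CHL1, NRCAM, NCAM1, CADM1, ALCAM, MCAM, BCAM and EPCAM. The 10 genes were chosen by name from the 62703 genes of the deposited table, with their values in this comparison already known, so their levels and fold changes are a description and no p-value is given for them. Of the 10 genes, 8 had enough counts to be among the 15179 genes tested, and NRCAM and CHL1 did not.

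PANC-1 cells, a human line from a ductal carcinoma of the pancreas, were compared by RNA-seq. DKK1-SE+/+ cells have the genotype WT and the treatment Control in the labels, and DKK1-SE-/- cells have the genotype DKK1-SE Knockout and the treatment Gene Editing, with 3 biological replicates of each. The edited cells lost e1, a component of the super-enhancer DKK1-SE, on both alleles through CRISPR-Cas9, and they are a single clone, so the deletion and other differences of that clone cannot be told apart. RNA was taken from cells in logarithmic growth. The labels call the samples biological replicates and the paper states independent replicates for its experiments in general. How these cultures were kept apart is not given, so p-values measure the spread between these samples of a single clone and of WT cells. Whether the WT cells were the parent line itself or had also been cloned is not given.

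The total expected count, an estimate of the reads that belong to each gene summed over genes, was 21822314, 16475810 and 18803154 in DKK1-SE+/+ replicates 1, 2 and 3. It was 17359835, 20098086 and 17804764 in the DKK1-SE-/- libraries in the same order. Samples of a genotype correlated across genes at 0.980 to 0.990 (Pearson's r on the log2(TPM + 1) scale) and samples of different genotypes at 0.953 to 0.968, and these are descriptions because genes are not independent replicates. TPM is a level scaled by transcript length within each library, so levels of different genes are compared in TPM below, and shares in CPM, which is counts scaled to library size, are given only as a check of the shares in TPM.

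Most adhesion molecules of this family carry a row of immunoglobulin domains outside the cell, a single membrane span and a short tail that binds the cytoskeleton. The L1 family (L1CAM, NFASC, NRCAM and CHL1) guides and fastens axons and binds ankyrins, NCAM1 and CADM1 join like cells to each other, and ALCAM, MCAM and BCAM share a domain layout and bind CD6 or particular laminins among other partners. EPCAM has no immunoglobulin domain and is a surface protein of simple epithelia and their carcinomas, while L1CAM in pancreatic carcinoma has been linked to invasion along nerves.

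The enhancer's target gene was examined first as a check of the labels. DKK1, which encodes a secreted Wnt antagonist, was at 229, 246 and 199 TPM in DKK1-SE+/+ replicates 1, 2 and 3, and 66.8, 79.8 and 82.7 TPM in DKK1-SE-/- replicates 1, 2 and 3. The genotypes did not overlap, and the mean was 225 ± 24 TPM in DKK1-SE+/+ and 76.4 ± 8.47 TPM in DKK1-SE-/- cells (SD, n = 3; p = 0.1 in a two-sided exact permutation test, which can give no smaller value with 3 samples against 3). The labels therefore went with the level of DKK1 in every sample.

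Among the adhesion molecules, MCAM was lower and NFASC was higher in DKK1-SE-/- cells, and these were the largest differences in the group. EPCAM and CADM1 were lower by less, and ALCAM, L1CAM, BCAM and NCAM1 did not pass the test. A gene was called when its Benjamini-Hochberg adjusted p-value in edgeR's quasi-likelihood test over all tested genes was under 0.05. Of the 8 tested members, 1 was called higher, where 19.8% of all tested genes were, and 3 were called lower, where 19.5% of all tested genes were. Either direction together, 39.3% of all tested genes were called, and since the members were chosen with this comparison known, nothing is read from their counts. Without DKK1-SE-/- replicate 3, 2 members were called higher, and 1 member was called lower without DKK1-SE+/+ replicate 1 or 3 or without DKK1-SE-/- replicate 1 or 2. The TPM values of the genotypes did not overlap for 5 of the 8 members (MCAM, NFASC, EPCAM, L1CAM and BCAM), against 44.2% of all tested genes. In bulk RNA, fewer cells that make a transcript and less of it per cell cannot be told apart.

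**Figure D1:**
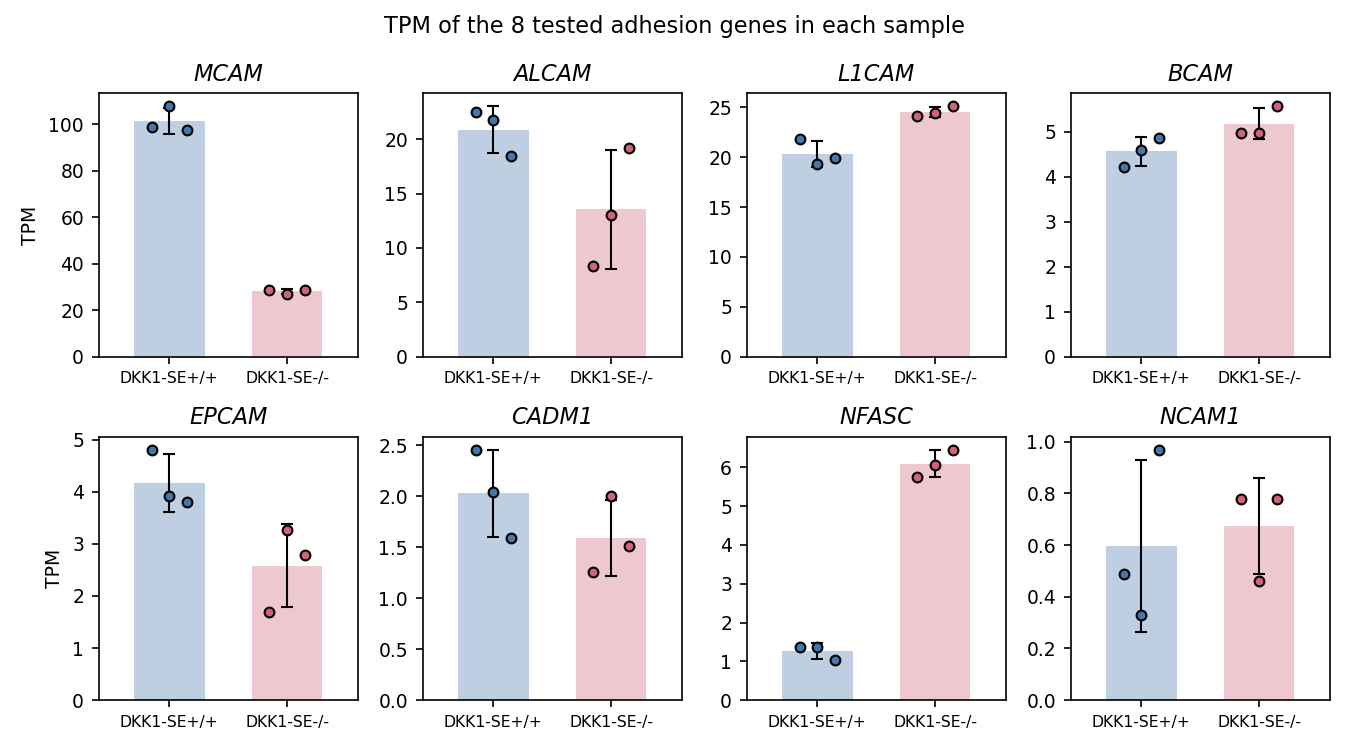
TPM of the 8 tested adhesion genes in each of the 6 samples, where points are samples in the order of their replicate numbers, bars are means and error bars are 1 SD (n = 3). MCAM is at 97.5 to 108 TPM in DKK1-SE+/+ and 27.0 to 28.9 TPM in DKK1-SE-/- cells, and NFASC at 1.04 to 1.38 and 5.76 to 6.46 TPM.

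NFASC encodes neurofascin, an L1-family protein that gathers sodium channels at nodes of Ranvier and at the start of the axon through ankyrin. The gene (ENSG00000163531) lies at chr1:204828651-205022822 on the plus strand (hg38, GENCODE version 44). It was at 1.38, 1.38 and 1.04 TPM in DKK1-SE+/+ replicates 1, 2 and 3, and 5.76, 6.06 and 6.46 TPM in DKK1-SE-/- replicates 1, 2 and 3. Every DKK1-SE-/- sample was above every DKK1-SE+/+ sample, and the samples within each genotype lay close together. The expected counts behind these values were 66, 49 and 48 in DKK1-SE+/+ and 243, 323 and 227 in DKK1-SE-/- replicates 1, 2 and 3, so the transcript was rare in unedited cells but well above the limit of detection. The log2 fold change was 2.40 (SE 0.173, 95% interval 2.02 to 2.78), which is 5.26-fold higher.

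L1CAM is a homophilic adhesion molecule of axons that also binds integrins through an RGD sequence. The gene (ENSG00000198910) lies at chrX:153861514-153886173 on the minus strand. It was at 21.81, 19.3 and 19.9 TPM in DKK1-SE+/+ replicates 1, 2 and 3, and 24.1, 24.4 and 25.1 TPM in DKK1-SE-/- replicates 1, 2 and 3. The DKK1-SE-/- samples were all higher in TPM, by a margin that was small beside the level. The log2 fold change from counts was 0.21 (SE 0.102, 95% interval -0.02 to 0.43), which was not called, and it became -0.06 once each library was given an offset for GC content, and 0.13 with library size alone. L1CAM has a GC content of 60.04%, where the median of the tested genes was 48.9%.

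The other L1-family genes were at or near 0 counts in both genotypes. CHL1, the close homolog of L1CAM (ENSG00000134121, chr3:196763-409417 on the plus strand), had 0 counts in every library, which allows up to 3 counts, or 0.137 to 0.182 CPM, depending on the library. NRCAM, a neuronal partner of contactins and ankyrins (ENSG00000091129, chr7:108147623-108456717 on the minus strand), had 0, 0 and 0 in DKK1-SE+/+ and 3, 2 and 0 in DKK1-SE-/- replicates 1, 2 and 3. These counts are at or below 3, so no fold change is given, and these limits cover counting error only.

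NCAM1 encodes the neural cell adhesion molecule CD56, whose polysialic acid chains weaken adhesion. The gene (ENSG00000149294) lies at chr11:112961275-113278436 on the plus strand. It was at 0.49, 0.33 and 0.97 TPM in DKK1-SE+/+ replicates 1, 2 and 3, and 0.78, 0.46 and 0.78 TPM in DKK1-SE-/- replicates 1, 2 and 3. The genotypes overlapped. The expected counts were 46, 22 and 40 in DKK1-SE+/+ and 19, 23 and 23 in DKK1-SE-/- replicates 1, 2 and 3, so the counts and the TPM values point in opposite directions. The log2 fold change was -0.59 (SE 0.316, 95% interval -1.29 to 0.10) from counts, which was not called, and 0.08 from log2(TPM + 1).

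The counts per TPM of a gene reflect the transcript length that the authors' estimate assigned to it. This ratio was divided by the library's median over genes with at least 10 TPM in every sample, a measure chosen after seeing the NCAM1 values. For NCAM1 it was 2.42 ± 0.769 in DKK1-SE+/+ and 1.22 ± 0.329 in DKK1-SE-/- cells (SD, n = 3). The samples of the genotypes overlapped. For MCAM it was 1.05 ± 0.0374 in DKK1-SE+/+ and 1.24 ± 0.0125 in DKK1-SE-/- cells (SD, n = 3), without overlap. MCAM had a log2 ratio of mean TPM of -1.85, larger in size than the log2 fold change from counts. For the other 6 tested members the samples of the genotypes overlapped in this ratio, and the NFASC means were 1.57 in DKK1-SE+/+ and 1.56 in DKK1-SE-/- cells. Which isoforms were expressed was not tested.

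CADM1 encodes a synaptic and epithelial adhesion molecule known as a tumor suppressor in lung cancer. The gene (ENSG00000182985) lies at chr11:115169218-115504957 on the minus strand. It was at 2.45, 2.04 and 1.59 TPM in DKK1-SE+/+ replicates 1, 2 and 3, and 1.26, 2.0 and 1.51 TPM in DKK1-SE-/- replicates 1, 2 and 3. The genotypes overlapped in TPM. The expected counts were 137, 78 and 113 in DKK1-SE+/+ and 43, 71 and 77 in DKK1-SE-/- replicates 1, 2 and 3, and the log2 fold change was -0.65 (SE 0.222, 95% interval -1.14 to -0.17). CADM1 fell by the test over all genes, but the call was lost without DKK1-SE+/+ replicate 1 (log2 fold change -0.62) or 3 (-0.61) and without DKK1-SE-/- replicate 1 (-0.51) or 2 (-0.67). With replicate numbers as blocks it was -0.66 and in log2(TPM + 1) it was -0.22, both not called.

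MCAM, also called CD146 or MUC18, was named for its presence on advanced melanoma and binds laminin that contains the alpha 4 chain. The gene (ENSG00000076706) lies at chr11:119308529-119321521 on the minus strand. It was at 99.1, 108 and 97.5 TPM in DKK1-SE+/+ replicates 1, 2 and 3, and 28.9, 27.0 and 28.9 TPM in DKK1-SE-/- replicates 1, 2 and 3. Every DKK1-SE-/- sample was far below every DKK1-SE+/+ sample, and the samples within each genotype lay close together. The log2 fold change was -1.47 (SE 0.101, 95% interval -1.69 to -1.25), which is 2.78-fold lower. The study words its limits for differential expression as p below 0.05 and a fold change of 1.2. Read as a linear fold change, a reading added after seeing the data, 6 of the 8 tested members passed (MCAM, NFASC, EPCAM, CADM1, ALCAM and BCAM), and so did 47.6% of all tested genes. Read on the log2 scale, MCAM and NFASC passed, and so did 8.66% of all tested genes. Nothing is read from either count.

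The promoters of the members with the largest fold changes are shown so that a reader can see which letters lie before their starts. AP1 motifs were searched because the paper reports AP1 binding at e1. It did not study AP1 at the promoters shown here, and an effect of the deletion through them was not tested. RefSeq promoters of GRCh38.p14 were found for 7 of the 10 members, and the 250 bases before the transcription start are printed 5′ to 3′ on the strand of the gene. Capitals mark TGACGTCA, which both CREB and AP1 dimers can bind, and the GC box GGGCGG or its complement CCGCCC. The AP1 motif TGANTCA was searched as well and would also be in capitals; TGACGTCA and TGANTCA read the same on both strands and do not overlap each other. The MCAM stretch lies at chr11:119317131-119317380 on the minus strand, and the NFASC stretches at chr1:204828402-204828651 and chr1:204870612-204870861 on the plus strand.
MCAM: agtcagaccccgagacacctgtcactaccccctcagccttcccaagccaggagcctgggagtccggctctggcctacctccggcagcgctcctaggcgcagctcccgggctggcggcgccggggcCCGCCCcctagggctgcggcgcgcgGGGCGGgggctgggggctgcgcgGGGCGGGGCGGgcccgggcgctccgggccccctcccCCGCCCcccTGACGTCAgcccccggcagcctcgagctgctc
NFASC first start: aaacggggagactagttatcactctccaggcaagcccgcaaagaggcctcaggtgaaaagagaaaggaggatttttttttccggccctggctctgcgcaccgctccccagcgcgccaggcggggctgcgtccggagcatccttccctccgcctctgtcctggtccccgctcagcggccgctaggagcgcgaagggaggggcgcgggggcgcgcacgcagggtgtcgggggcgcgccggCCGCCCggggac
NFASC second start: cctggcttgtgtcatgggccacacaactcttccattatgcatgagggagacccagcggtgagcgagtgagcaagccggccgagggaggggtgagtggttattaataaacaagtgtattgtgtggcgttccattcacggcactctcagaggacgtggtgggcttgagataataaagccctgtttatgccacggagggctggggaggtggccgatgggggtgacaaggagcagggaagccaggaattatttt

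The MCAM promoter held 1 TGACGTCA, which begins 32 bases before the start, and 5 GC boxes. Both windows of NFASC were without TGACGTCA and TGANTCA, and the first held 1 GC box. Over the 14 promoters of the 7 members, of which some overlap, TGACGTCA occurred in 2 (MCAM and 1 of the NRCAM promoters), TGANTCA in 1 (the same NRCAM promoter) and the GC box in 8. Among all 35097 promoter windows of the same length, 1.65% held TGACGTCA, 6.57% held TGANTCA and 42.6% held the GC box. A match describes the letters, and binding was not tested.

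ALCAM, or CD166, binds CD6 on lymphocytes and itself on neighboring cells. The gene (ENSG00000170017) lies at chr3:105366909-105576900 on the plus strand. It was at 22.5, 21.76 and 18.4 TPM in DKK1-SE+/+ replicates 1, 2 and 3, and 8.37, 13.1 and 19.2 TPM in DKK1-SE-/- replicates 1, 2 and 3. The DKK1-SE-/- samples were spread over more than a 2-fold range, and replicate 3 lay among the unedited samples. Its log2 fold change was -0.55 (SE 0.209, 95% interval -1.01 to -0.09) and was not called after adjustment over all genes. Without DKK1-SE-/- replicate 3 it was -0.83 and called, and without DKK1-SE-/- replicate 1 it was -0.33 and not called. It was also called with DESeq2 (-0.56), with RLE normalization (-0.56) with no filter on low counts (-0.57) and with replicate numbers as blocks (-0.60), while with a GC-content offset it was -0.24 and not called.

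BCAM carries the Lutheran blood group and is a receptor for the laminin alpha 5 chain. The gene (ENSG00000187244) lies at chr19:44809071-44821421 on the plus strand. It was at 4.22, 4.60 and 4.87 TPM in DKK1-SE+/+ replicates 1, 2 and 3, and 4.97, 4.98 and 5.57 TPM in DKK1-SE-/- replicates 1, 2 and 3. The DKK1-SE-/- samples were all higher, by a narrow margin for the closest pair. The log2 fold change was 0.38 (SE 0.152, 95% interval 0.05 to 0.72) and was not called; it was 0.43 and called without DKK1-SE-/- replicate 3, 0.02 with a GC-content offset, and 0.15 from log2(TPM + 1). BCAM has the highest GC content of the 10 genes, 65.9%.

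EPCAM is the adhesion molecule by which circulating carcinoma cells are often captured. The gene (ENSG00000119888) lies at chr2:47345158-47387601 on the plus strand. It was at 4.81, 3.91 and 3.80 TPM in DKK1-SE+/+ replicates 1, 2 and 3, and 1.70, 3.27 and 2.78 TPM in DKK1-SE-/- replicates 1, 2 and 3. The genotypes did not overlap, and DKK1-SE-/- replicate 1 was the lowest. The expected counts were 103, 65 and 72 in DKK1-SE+/+ and 32, 56 and 51 in DKK1-SE-/- replicates 1, 2 and 3, and the log2 fold change was -0.67 (SE 0.231, 95% interval -1.17 to -0.16). EPCAM fell by the test over all genes, but the call was lost when any of the samples other than DKK1-SE-/- replicate 3 was left out. The fold change was then -0.61, -0.70 and -0.72 without DKK1-SE+/+ replicates 1, 2 and 3, and -0.53 and -0.75 without DKK1-SE-/- replicates 1 and 2. It was also not called with DESeq2 (-0.68), with replicate numbers as blocks (-0.68) or from log2(TPM + 1) (-0.55).

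**Figure D2:**
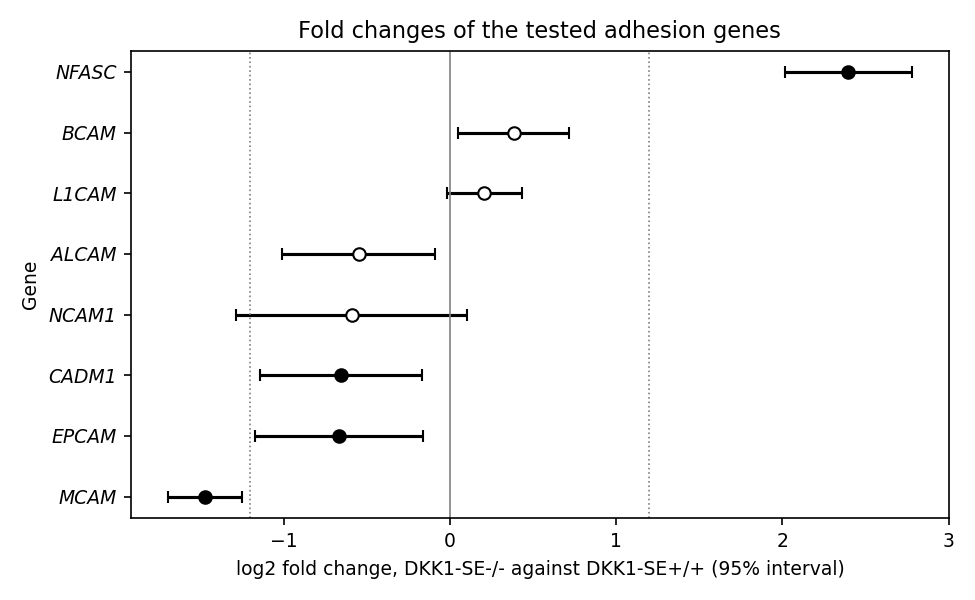
log2 fold change of the 8 tested adhesion genes in DKK1-SE-/- against DKK1-SE+/+ cells, from edgeR on expected counts (3 samples each), where bars are 95% intervals, filled points were called at an adjusted p-value under 0.05, and dotted lines mark a log2 fold change of 1.2 in either direction. NFASC lies at 2.40 and MCAM at -1.47, and the other 6 lie between -0.67 and 0.38.

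The order of the levels differed between the genotypes. In DKK1-SE+/+ cells MCAM led with 101 ± 5.62 TPM (SD, n = 3), followed by ALCAM (20.9 ± 2.17), L1CAM (20.3 ± 1.31), BCAM (4.56 ± 0.327), EPCAM (4.17 ± 0.554), CADM1 (2.03 ± 0.430), NFASC (1.27 ± 0.196) and NCAM1 (0.597 ± 0.333). ALCAM and L1CAM overlapped in that group, and so did BCAM and EPCAM. In DKK1-SE-/- cells MCAM was at 28.2 ± 1.09 TPM and L1CAM next at 24.6 ± 0.530, followed by ALCAM (13.6 ± 5.45), NFASC (6.09 ± 0.351), BCAM (5.17 ± 0.344), EPCAM (2.58 ± 0.803), CADM1 (1.59 ± 0.376) and NCAM1 (0.673 ± 0.185). Only EPCAM and CADM1 overlapped there among the neighbors of the tested members. NFASC moved from rank 7 to rank 4, and the lead of MCAM over the next gene shrank from 4.86 times to 1.15 times. In CPM, L1CAM was above MCAM in every DKK1-SE-/- sample, so the lead of MCAM there depends on the scaling by length.

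The 10 genes together summed to 157, 161 and 148 TPM in DKK1-SE+/+ and 75.8, 81.2 and 90.4 TPM in DKK1-SE-/- replicates 1, 2 and 3. MCAM made up most of the sum in the DKK1-SE+/+ samples. The share of MCAM in the sum was 63.2%, 66.9% and 65.8% in DKK1-SE+/+ and 38.0%, 33.2% and 32.0% in DKK1-SE-/- replicates 1, 2 and 3. L1CAM took 13.1% ± 1.02 of the sum in DKK1-SE+/+ and 29.9% ± 1.99 in DKK1-SE-/- cells (SD, n = 3), although its own level differed little. NFASC took 0.813% ± 0.0967 and 7.40% ± 0.228. ALCAM took 13.4% ± 0.959 and 16.1% ± 5.12, within the spread of the DKK1-SE-/- samples. The shares add up to a fixed total, so a lower share of MCAM raises the others without any change of their own.

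The other adhesion molecules of the immunoglobulin superfamily were counted from a list of 59 genes. Of these, 32 were tested, 9 were called higher and 7 were called lower, where 19.8% of all tested genes were called higher and 19.5% lower. Their log2 fold changes had a median of 0.23 beside 0.03 over all tested genes. Of the 16 called genes, 10 were also called in every fit that left out 1 sample, and without DKK1-SE+/+ replicate 2 the genes called lower numbered 4. From log2(TPM + 1), with 4161 genes called in all, 4 of this list were called higher and 6 lower. From log2(TPM + 0.1) without a filter, with 2667 genes called in all, 2 were called higher and 4 lower. ICAM1, the endothelial and epithelial ligand of leukocyte integrins, was at 113, 117 and 119 TPM in DKK1-SE+/+ and 227, 208 and 221 TPM in DKK1-SE-/- cells. It rose with a log2 fold change of 1.06 (SE 0.10), and the genotypes did not overlap. SDK1, a homophilic adhesion molecule of retinal synapses, was at 2.24, 3.51 and 2.55 TPM in DKK1-SE+/+ and 9.94, 7.76 and 10.2 TPM in DKK1-SE-/- cells and rose with a log2 fold change of 1.87 (SE 0.149).

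LSAMP, a GPI-anchored protein of limbic neurons, was at 0.36, 0.52 and 0.86 TPM in DKK1-SE+/+ and 0.78, 1.17 and 2.11 TPM in DKK1-SE-/- cells. Its log2 fold change was 2.20 (SE 0.262) from counts, but the genotypes overlapped in TPM, and it was 0.55 and not called from log2(TPM + 1). NECTIN3, a nectin of adherens junctions, was at 3.19, 3.52 and 3.39 TPM in DKK1-SE+/+ and 5.23, 4.0 and 11.2 TPM in DKK1-SE-/- cells and rose with a log2 fold change of 0.96 (SE 0.205), with DKK1-SE-/- replicate 3 the highest, but it was not called from log2(TPM + 1) (0.73). KIRREL2, a relative of nephrin, had a log2 fold change of 0.52 (SE 0.174), and its call was lost without DKK1-SE+/+ replicate 1 (0.47), 2 (0.59) or 3 (0.46) and without DKK1-SE-/- replicate 1 (0.39) or 2 (0.57). It was also lost with a GC-content offset (0.25), with DESeq2 (0.51), with library size alone (0.45), with no filter (0.50), with replicate numbers as blocks (0.52) and in log2(TPM + 1) (0.26).

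Among the genes that fell, EMB, which encodes embigin, a chaperone of monocarboxylate transporters, was at 20.9, 22.8 and 21.4 TPM in DKK1-SE+/+ and 5.93, 7.36 and 9.77 TPM in DKK1-SE-/- cells. The log2 fold change of EMB was -1.40 (SE 0.178), and -0.90 and still called with a GC-content offset. CD58, the ligand of CD2 on T cells, was at 13.2, 13.4 and 11.6 TPM in DKK1-SE+/+ and 3.50, 5.42 and 5.55 TPM in DKK1-SE-/- cells and had a log2 fold change of -1.29 (SE 0.192). The genotypes did not overlap for either gene. NEGR1, a GPI-anchored relative of LSAMP, had a log2 fold change of -1.55 (SE 0.236), from 1.53 to 2.90 TPM in DKK1-SE+/+ and 0.21 to 0.68 TPM in DKK1-SE-/- cells. KIRREL1 had a log2 fold change of -0.41 (SE 0.106), with the call lost without DKK1-SE+/+ replicate 2 (-0.41) or DKK1-SE-/- replicate 2 (-0.34). MPZL1, a substrate of SHP2, had a log2 fold change of -0.35 (SE 0.103), with the call lost without DKK1-SE+/+ replicate 2 (-0.34) or 3 (-0.31) or DKK1-SE-/- replicate 2 (-0.34) and with replicate numbers as blocks (-0.35).

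The wider KEGG pathway of cell adhesion molecules, as annotated in the deposited table and without the 10 members, held 144 genes, and 62 were tested. Of these, 26 were called higher and 12 lower, where 19.8% of all tested genes were called higher and 19.5% lower. The median log2 fold change was 0.14, and 29 of the 38 called genes were called in every fit that left out 1 sample. From log2(TPM + 1), with 4161 genes called in all, 17 pathway genes were called higher and 14 lower. From log2(TPM + 0.1) without a filter, with 2667 genes called in all, 11 were called higher and 8 lower. The list shares genes with the one above, NECTIN3, ICAM1, NEGR1 and CD58 among them. NEO1, a receptor of netrin and RGM, rose with a log2 fold change of 2.57 (SE 0.208), and VSIR, the checkpoint protein VISTA, with 2.28 (SE 0.182). VSIR was at 2.08, 3.11 and 1.84 TPM in DKK1-SE+/+ and 8.73, 8.85 and 11.5 TPM in DKK1-SE-/- cells. CDH3, which encodes P-cadherin, rose with a log2 fold change of 2.16 (SE 0.347), and LRRC4B, a synaptic adhesion molecule, with 1.46 (SE 0.329), both from low levels of 0.24 to 1.18 TPM in DKK1-SE+/+ and 1.78 to 2.49 TPM in DKK1-SE-/- cells for CDH3 and 0.44 to 0.78 TPM in DKK1-SE+/+ and 0.79 to 1.40 TPM in DKK1-SE-/- cells for LRRC4B. From log2(TPM + 1) LRRC4B was not called (0.45), NEO1 was 1.31 and CDH3 0.90, both called, and CDH3 was not called from log2(TPM + 0.1) without a filter (1.65).

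CDH2, which encodes N-cadherin, a marker of mesenchymal cells, fell furthest among the named genes of this pathway. It was at 19.6, 19.3 and 19.2 TPM in DKK1-SE+/+ and 1.08, 1.44 and 1.59 TPM in DKK1-SE-/- cells. Its log2 fold change was -3.85 (SE 0.143), and CDH2 was lower in 3 of 3 DKK1-SE-/- samples than in any DKK1-SE+/+ sample. CD22, a sialic acid-binding lectin known from B cells, fell with a log2 fold change of -1.41 (SE 0.164).

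The proteins that anchor these molecules inside the cell were examined next. Ankyrins, spectrins, ERM proteins and scaffolds under the tails of the L1 family, ALCAM, CADM1 and EPCAM made a list of 20 genes, of which 19 were tested. Of these, 3 were called higher and 7 lower, where 19.8% of all tested genes were called higher and 19.5% lower. The median log2 fold change was 0.11, also with EPB41L3 at its lower bound, and 8 of the 10 called genes were called in every fit that left out 1 sample. The ankyrins link the L1 family to spectrin, and all of them were called lower, while NFASC was higher. ANK2 was at 8.28, 9.13 and 8.69 TPM in DKK1-SE+/+ and 2.65, 2.04 and 4.15 TPM in DKK1-SE-/- cells. It was lower in 3 of 3 DKK1-SE-/- samples, with a log2 fold change of -1.57 (SE 0.148). ANK1 was at 28.8, 27.3 and 30.5 TPM in DKK1-SE+/+ and 14.0, 12.7 and 15.4 TPM in DKK1-SE-/- cells and fell with a log2 fold change of -0.92 (SE 0.108). ANK3, which encodes ankyrin G, the partner of neurofascin at the axon start, fell with a log2 fold change of -1.31 (SE 0.217), but its TPM values overlapped and it was not called from log2(TPM + 1) (-0.63).

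SPTBN1, a beta spectrin, fell with a log2 fold change of -0.60 (SE 0.120). EZR, which encodes ezrin and joins the tails of ALCAM and other surface proteins to actin, was at 398, 448 and 437 TPM in DKK1-SE+/+ and 214, 201 and 235 TPM in DKK1-SE-/- cells and fell with a log2 fold change of -0.84 (SE 0.0966). RDX, which encodes radixin, fell with a log2 fold change of -0.61 (SE 0.144), but with a GC-content offset it was -0.18 and not called. EPB41L3, the 4.1 protein that binds the tail of CADM1, had 0 counts in each DKK1-SE+/+ library and 13 to 25 counts in the DKK1-SE-/- libraries. It was at least 6.62-fold higher in DKK1-SE-/- cells, computed against 3 counts in each DKK1-SE+/+ library.

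Ligands and lateral partners of the members made a list of 25 genes, of which 19 were tested, 3 were called higher and 6 lower (19.8% and 19.5% of all tested genes), and the median log2 fold change was -0.28. Of the 9 called genes, 7 were called in every fit that left out 1 sample. LAMA4, the laminin chain that MCAM binds, was at 2.67, 2.83 and 1.51 TPM in DKK1-SE+/+ replicates 1, 2 and 3, and 9.40, 11.5 and 15.6 TPM in DKK1-SE-/- replicates 1, 2 and 3. It rose with a log2 fold change of 2.92 (SE 0.171), higher in 3 of 3 DKK1-SE-/- samples, so the ligand chain was higher where MCAM was lower. LAMA5, the laminin chain that BCAM binds, was at 64.9, 60.5 and 80.3 TPM in DKK1-SE+/+ and 81.4, 76.9 and 77.4 TPM in DKK1-SE-/- cells. Its log2 fold change was 0.29 (SE 0.124, 95% interval 0.02 to 0.57), which was not called and was -0.06 with a GC-content offset; it was 0.35 and called without DKK1-SE-/- replicate 3, and 0.16 and not called without DKK1-SE-/- replicate 1.

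FGFR1, a receptor that NCAM1 and L1CAM bind in cis, was at 124, 133 and 126 TPM in DKK1-SE+/+ replicates 1, 2 and 3, and 46.3, 48.4 and 43.6 TPM in DKK1-SE-/- replicates 1, 2 and 3. It fell with a log2 fold change of -1.40 (SE 0.0989), lower in 3 of 3 DKK1-SE-/- samples. The called integrin subunits that pair with L1CAM moved in different directions, and ITGB3 was not called. ITGB3 was at 3.48, 3.50 and 3.87 TPM in DKK1-SE+/+ and 3.17, 3.27 and 4.39 TPM in DKK1-SE-/- cells. Its log2 fold change was 0.15 (SE 0.139). ITGA5 was at 122 to 135 TPM in DKK1-SE+/+ and 178 to 205 TPM in DKK1-SE-/- cells and rose with a log2 fold change of 0.66 (SE 0.116). ITGAV was at 54.2 to 71.0 TPM in DKK1-SE+/+ and 18.4 to 35 TPM in DKK1-SE-/- cells and fell with a log2 fold change of -1.16 (SE 0.173), and ITGB1, the shared beta subunit, was at 443 to 484 TPM in DKK1-SE+/+ and 170.0 to 338 TPM in DKK1-SE-/- cells and fell with a log2 fold change of -0.77 (SE 0.166). With a GC-content offset ITGA5 was 0.41, ITGAV -0.75 and ITGB1 -0.46, all still called.

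Semaphorin 3A signals through a complex of neuropilin 1 and L1CAM. SEMA3A was at 2.64, 1.67 and 2.37 TPM in DKK1-SE+/+ and 4.89, 7.65 and 11.8 TPM in DKK1-SE-/- cells and rose with a log2 fold change of 1.71 (SE 0.223). NRP1, which encodes neuropilin 1, was at 23.0, 28.1 and 24.1 TPM in DKK1-SE+/+ and 17.8, 17.4 and 24.6 TPM in DKK1-SE-/- cells, and the genotypes overlapped. Its log2 fold change of -0.35 (SE 0.125) was called lower, but not without DKK1-SE+/+ replicate 1 (-0.42), 2 (-0.28) or 3 (-0.40), without DKK1-SE-/- replicate 1 (-0.33) or 2 (-0.28), with replicate numbers as blocks (-0.36) or from log2(TPM + 1) (-0.33). NRP2, the receptor of other class 3 semaphorins, was at 1.95, 2.12 and 2.02 TPM in DKK1-SE+/+ and 0.79, 0.72 and 0.80 TPM in DKK1-SE-/- cells and fell with a log2 fold change of -1.36 (SE 0.235), and of -0.78 from log2(TPM + 1). The genotypes did not overlap for SEMA3A and NRP2.

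Proteases that release the outer parts of these molecules, and enzymes that modify their glycans, made a list of 16 genes, of which 15 were tested, 1 was called higher and 5 lower (19.8% and 19.5% of all tested genes), and the median log2 fold change was -0.04. Of the 6 called genes, 4 were called in every fit that left out 1 sample. ADAM10, which sheds L1CAM, was at 80.5, 75.2 and 67.9 TPM in DKK1-SE+/+ and 32.7, 38.8 and 57.5 TPM in DKK1-SE-/- cells and fell with a log2 fold change of -0.76 (SE 0.184), and of -0.34, still called, with a GC-content offset. ADAM17, which sheds ALCAM and EPCAM, was at 15, 13.9 and 13.2 TPM in DKK1-SE+/+ and 11.9, 14.4 and 20.2 TPM in DKK1-SE-/- cells. Its log2 fold change was 0.27 (SE 0.162), which was not called; it was 0.42 and called without DKK1-SE-/- replicate 1, and 0.51 and called with a GC-content offset. Without DKK1-SE-/- replicate 3 ADAM17 was 0.07 and from log2(TPM + 1) it was 0.10, both not called. ADAM9 was at 137, 142 and 133 TPM in DKK1-SE+/+ and 24.6, 37.5 and 51.6 TPM in DKK1-SE-/- cells and fell with a log2 fold change of -1.73 (SE 0.184). MMP14, a membrane-bound matrix protease, was at 4.31, 3.25 and 2.97 TPM in DKK1-SE+/+ and 0.21, 0.30 and 0.28 TPM in DKK1-SE-/- cells. It fell with a log2 fold change of -3.76 (SE 0.312), lower in 3 of 3 DKK1-SE-/- samples. From log2(TPM + 1) MMP14 was -1.83 and called.

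Genes that act with EPCAM made a list of 14 genes, of which 11 were tested, 2 were called higher and 4 lower (19.8% and 19.5% of all tested genes), and the median log2 fold change was -0.18. Of the 6 called genes, 4 were called in every fit that left out 1 sample. CLDN7, the claudin that binds EPCAM directly, was at 29.5, 31.6 and 31.5 TPM in DKK1-SE+/+ replicates 1, 2 and 3, and 6.66, 9.51 and 6.61 TPM in DKK1-SE-/- replicates 1, 2 and 3. It fell with a log2 fold change of -1.92 (SE 0.178), lower in 3 of 3 DKK1-SE-/- samples. CLDN1, another tight junction claudin, was at 20.1, 20.8 and 19.1 TPM in DKK1-SE+/+ and 40.8, 44.1 and 56.8 TPM in DKK1-SE-/- cells and rose with a log2 fold change of 1.36 (SE 0.112).

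The cleaved tail of EPCAM acts with beta-catenin and LEF1. CTNNB1, which encodes beta-catenin, was at 174, 161 and 158 TPM in DKK1-SE+/+ and 85.9, 93.1 and 116 TPM in DKK1-SE-/- cells and fell with a log2 fold change of -0.64 (SE 0.112). LEF1 was at 1.18, 1.2 and 2.75 TPM in DKK1-SE+/+ and 2.63, 3.09 and 3.37 TPM in DKK1-SE-/- cells, overlapping in TPM, and its log2 fold change of 1.64 (SE 0.313) from counts was called, while 0.62 from log2(TPM + 1) was not. The tetraspanin CD9, which associates with EPCAM, was at 122, 120.5 and 118 TPM in DKK1-SE+/+ and 111, 137 and 129 TPM in DKK1-SE-/- cells. CD9 had a log2 fold change of 0.23 (SE 0.108), which was not called and was 0.31 and called with a GC-content offset, 0.14 without DKK1-SE-/- replicate 2 and 0.06 from log2(TPM + 1).

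**Figure D3:**
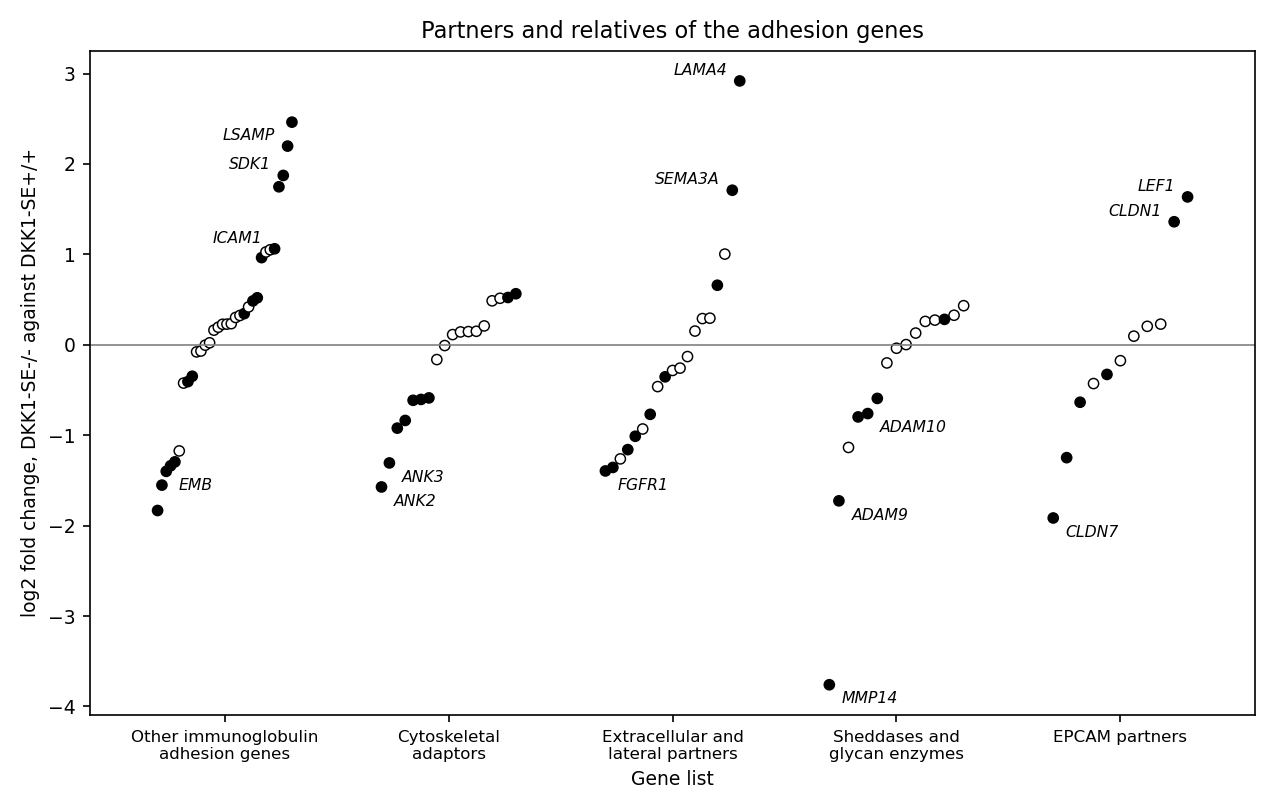
log2 fold change of the tested genes of 5 lists in DKK1-SE-/- against DKK1-SE+/+ cells, from edgeR on expected counts, where each point is a gene, sorted within its list, and filled points were called at an adjusted p-value under 0.05; EPB41L3 is left out because it had 0 counts in DKK1-SE+/+ cells. LAMA4 lies at 2.92 and MMP14 at -3.76.

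Markers of cell types were summed to describe what these cultures express. Of 10 epithelial markers, 7 were tested, 3 were called higher (19.8% of all tested genes) and 4 were not called, with a summed level of 1857, 1898 and 1935 TPM in DKK1-SE+/+ and 3157, 3098 and 2669 TPM in DKK1-SE-/- replicates 1, 2 and 3. KRT8 was the most abundant, at 936 to 988 TPM in DKK1-SE+/+ and 1362 to 1668 TPM in DKK1-SE-/- cells, and rose with a log2 fold change of 0.86 (SE 0.128). The log2 fold changes of KRT18 and KRT19, which also rose, were 0.67 (SE 0.112) and 1.83 (SE 0.159), and KRT18 was 0.42 and called with a GC-content offset. CDH1, which encodes E-cadherin, was at 1.24, 1.42 and 2.11 TPM in DKK1-SE+/+ and 0.42, 0.97 and 2.67 TPM in DKK1-SE-/- cells, and its log2 fold change of -0.43 (SE 0.317) was not called. Without DKK1-SE-/- replicate 2 it was -0.18, without replicate 3 it was -0.68 and from log2(TPM + 1) it was -0.24, all not called. EPCAM, an epithelial surface marker itself, was called lower in the main fit, in which these keratins were called higher. The call of EPCAM was lost under 10 of the 15 alternatives, while KRT8, KRT18 and KRT19 were called under all 15. The part of the keratins in the level of EPCAM was not tested.

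Of 8 mesenchymal markers, 7 were tested, 1 was called higher and 3 lower (19.8% and 19.5% of all tested genes), with a summed level of 4273, 4679 and 4936 TPM in DKK1-SE+/+ and 3120.0, 2921 and 2967 TPM in DKK1-SE-/- replicates 1, 2 and 3. VIM was the most abundant, at 3746 to 4522 TPM in DKK1-SE+/+ and 2534 to 2819 TPM in DKK1-SE-/- cells, and fell with a log2 fold change of -0.47 (SE 0.109). ZEB1, a repressor of epithelial genes, fell with a log2 fold change of -1.27 (SE 0.165), from 9.17 to 9.81 TPM in DKK1-SE+/+ and 2.75 to 4.55 TPM in DKK1-SE-/- cells. FN1, which encodes fibronectin, was the marker called higher, with a log2 fold change of 2.70 (SE 0.244) from counts. It was at 1.15, 1.53 and 2.06 TPM in DKK1-SE+/+ and 1.42, 1.95 and 3.76 TPM in DKK1-SE-/- cells, overlapping in TPM, and was 0.34 and not called from log2(TPM + 1). The part of these markers in the level of MCAM was not tested.

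Neuronal and glial markers were examined because NFASC, L1CAM and NCAM1 are best known from nerves. Of 11 neuroendocrine and neuronal markers, 5 were tested, 2 were called higher and 1 lower (19.8% and 19.5% of all tested genes), with a summed level of 149 to 168 TPM in DKK1-SE+/+ and 185 to 212 TPM in DKK1-SE-/- cells. TUBB3 made up most of it, at 126 to 146 TPM in DKK1-SE+/+ and 168 to 194 TPM in DKK1-SE-/- cells, and rose with a log2 fold change of 0.62 (SE 0.124), and of 0.27, still called, with a GC-content offset, while ENO2 fell with a log2 fold change of -0.76 (SE 0.142). SCG2, a secretogranin, was the other marker called higher, at 0.34, 0.29 and 0.22 TPM in DKK1-SE+/+ and 0.79, 0.98 and 1.95 TPM in DKK1-SE-/- cells, with a log2 fold change of 2.23 (SE 0.411), and of 0.77 from log2(TPM + 1). From log2(TPM + 0.1) without a filter SCG2 was 1.72 and not called. STMN2 and ELAVL4 were at 0 in every sample. Of 8 Schwann cell and glial markers, 3 were tested, 1 was called higher and 1 lower (again beside 19.8% and 19.5%), and the sum was 43.5 to 48.3 TPM in DKK1-SE+/+ and 50.5 to 65.7 TPM in DKK1-SE-/- cells. MBP was the most abundant, at 35.2 to 41 TPM in DKK1-SE+/+ and 45.5 to 60.1 TPM in DKK1-SE-/- cells. Its log2 fold change of 0.38 (SE 0.0971) was called, but not with a GC-content offset (0.16), with replicate numbers as blocks (0.38), from log2(TPM + 1) (0.40) or without DKK1-SE+/+ replicate 1 (0.36), 2 (0.36) or 3 (0.37). ERBB3, a neuregulin receptor, had a log2 fold change of -1.84 (SE 0.266) from counts and -0.24, not called, from log2(TPM + 1). Of the glial markers that were not tested, S100B was at 0 in every sample and SOX10 at no more than 0.36 TPM. GFAP was at 0.02, 0 and 0.08 TPM in DKK1-SE+/+ and 0.43, 0.23 and 0.49 TPM in DKK1-SE-/- cells. It had no more than 4.60 counts in any sample.

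Markers of cells that could carry MCAM, ALCAM or BCAM into a tissue sample were low. Their calls stand beside 19.8% of all tested genes called higher and 19.5% called lower. Of 7 endothelial markers, 6 were below 1 TPM in every sample and PECAM1 was at no more than 0.01 TPM. The sum was 2.57 to 2.69 TPM in DKK1-SE+/+ and 0.58 to 0.68 TPM in DKK1-SE-/- cells. KDR, the most abundant and the only tested marker, was at 2.08 to 2.51 TPM in DKK1-SE+/+ and 0.33 to 0.55 TPM in DKK1-SE-/- cells and fell with a log2 fold change of -2.49 (SE 0.195), and of -1.24 from log2(TPM + 1). Of 6 haematopoietic markers, 4 were below 1 TPM in every sample and PTPRC was at no more than 0.04 TPM. Their sum was 0.90 to 3.09 TPM in DKK1-SE+/+ and 1.82 to 2.39 TPM in DKK1-SE-/- cells. ITGAM had the highest mean over the 6 samples, though CD14 was above it in every DKK1-SE-/- sample. Of the 2 tested, CD14 was called higher with a log2 fold change of 1.76 (SE 0.398), with 0.68 from log2(TPM + 1), though not from log2(TPM + 0.1) (1.39). Of 7 fibroblast and pericyte markers, RGS5 had the highest mean over the 6 samples, at 2.09 to 5.80 TPM in DKK1-SE+/+ and 2.15 to 5.06 TPM in DKK1-SE-/- cells summed over its 2 gene identifiers, neither of which was called. COL3A1 was at 1.5 to 1.69 TPM in DKK1-SE+/+ and 3.61 to 4.07 TPM in DKK1-SE-/- cells, above RGS5 in DKK1-SE-/- replicates 1 and 2, and was called higher with a log2 fold change of 1.42 (SE 0.141), and with 0.89 from log2(TPM + 1). Their sum was 4.73 to 8.89 TPM in DKK1-SE+/+ and 6.85 to 9.74 TPM in DKK1-SE-/- cells, and PDGFRA was at no more than 0.10 TPM.

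The surroundings of the members on their chromosomes were described by the tested genes within 2 Mb. Of all tested genes, 19.8% were called higher and 19.5% lower. NFASC had 37 such neighbors, whose log2 fold changes had a median of 0.12 and of which 8 were called higher and 4 lower. MCAM had 39, with a median of -0.00, of which 8 were called higher and 4 lower. EPCAM had 18, with a median of -0.43, of which 1 was called higher and 9 lower. CADM1 had 20, with a median of 0.09, of which 2 were called higher and 0 lower, and ALCAM had 4, with a median of 0.52, 1 called higher and 0 lower. The medians were -0.31 over 24 neighbors of NCAM1 (1 higher, 5 lower), 0.15 over 66 of L1CAM (19 and 7), 0.23 over 85 of BCAM (25 and 2) and 0.38 over 18 of NRCAM (6 and 0), and CHL1 had 0 tested neighbors. The medians for CADM1 and ALCAM lay on the other side of 0 from the member's own fold change, and those for the other 6 tested members on the same side in the main fit, with MCAM's near 0. That number depends on the signs of L1CAM, which turned with a GC-content offset, and NCAM1, which turned from log2(TPM + 1). Whether position played a part was not tested.

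Of the genes that overlap a member, only CBL, which overlaps MCAM on the opposite strand, was tested. CBL, which encodes an E3 ubiquitin ligase, had a mean of 22.2 TPM in DKK1-SE+/+ and 20.9 TPM in DKK1-SE-/- cells, and its log2 fold change of 0.06 was not called. The sign of that small value turned with library size alone (-0.01), in log2(TPM + 1) (-0.10) and without DKK1-SE-/- replicate 3 (-0.02). The libraries were stranded, but no source used here says whether counting used the strand, so reads of MCAM and CBL in the overlap may not be separated. The genes that overlap the other members had at most 6 counts in any sample.

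The profiles most like that of NFASC over the 6 samples were those of ADGRF1, LINC00665 and HOXA10. The Euclidean distances of their centered log2(TPM + 1) values from NFASC were 0.170, 0.227 and 0.255. The likeness is on that scale, and the log2 fold changes from counts were 3.70 for ADGRF1, 2.24 for LINC00665 and 2.40 for NFASC. The fitted value for HOXA10 was 8.68, which can arise with counts near 0 in DKK1-SE+/+ cells, so no exact fold is read from it.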

How the data were processed

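The authors extracted RNA, and stranded mRNA libraries were made, sequenced and analysed at Majorbio. The aligner, counter and annotation are not given in the sources used here, and the submitters' processing notes name hg38. For every gene, the deposited table gives expected counts that the authors did not normalize, and TPM that the authors scaled by length within each library. Its columns of the authors' comparison (linear and log2 fold change, p-value, adjusted p-value) and of group mean TPM were not used, and its KEGG annotation was.

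Rounded expected counts were fitted with edgeR 4.0.16 in R 4.3.3 (filterByExpr with a minimum count of 10, TMM, quasi-likelihood F test, Benjamini-Hochberg adjustment over 15179 genes), after the fits were tested on simulated data. The SE was the absolute log2 fold change divided by the square root of F. Alternatives were DESeq2 1.42.0, RLE, library size alone, no filter, a replicate block, a GC-content offset in 40 bins with and without that block, limma-trend (limma 3.58.1) for log2(TPM + 1) or, unfiltered, log2(TPM + 0.1), and leaving out each of the 6 samples. Limits of p below 0.05 and a fold change of 1.2 were applied on the log2 and, added later, the linear scale. Exact tests used scipy 1.17.1. Counts per TPM were compared after seeing the data.

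The members and lists were chosen with earlier results of these data known, so the calls of their genes are a description. Named genes were the members and DKK1; of the 59 family genes and the KEGG list, the 5 highest and 5 lowest fold changes among called genes with a mean of at least 1 TPM in a genotype; any gene of the partner and marker lists; genes overlapping a member; and the 3 profiles nearest to NFASC.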

Additional observations from a re-analysis of the deposited data

How the results depend on the processing

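NFASC, MCAM and DKK1 kept their direction and their call under all 15 alternatives. Leaving out each sample in turn gave log2 fold changes of 2.30 to 2.47 for NFASC, -1.54 to -1.46 for MCAM, -1.53 to -1.42 for DKK1, -0.77 to -0.53 for EPCAM, -0.84 to -0.51 for CADM1, -0.83 to -0.33 for ALCAM, 0.27 to 0.43 for BCAM, 0.15 to 0.23 for L1CAM and -0.77 to -0.49 for NCAM1. The members called lower then numbered 1 to 4 and those called higher 1 to 2, the other immunoglobulin genes called higher 6 to 13 and lower 4 to 9, the pathway genes called higher 22 to 26 and lower 10 to 12, and all called genes 4095 to 7558.

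The replicate numbers did not pair the samples: deviations of same-numbered samples from their group means correlated at -0.12 to -0.07 across genes, and those of differently numbered samples at -0.05 to 0.15. With the replicate block, 4981 genes were called, ALCAM was called (-0.60), and EPCAM (-0.68) and CADM1 (-0.66) were not. With the replicate block and the GC-content offset, 1 member was called lower, EPCAM was -0.57 and CADM1 -0.56, both not called, L1CAM was -0.059 and LAMA5 -0.069. With the GC-content offset alone, L1CAM was -0.055 and LAMA5 -0.064.

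With limma on log2(TPM + 1), the median of all genes moved by -0.11, 1 member was called lower, and 4 of the other immunoglobulin genes and 17 pathway genes were called higher. EPCAM (-0.55) and CADM1 (-0.22) were not called, NCAM1 was 0.082 and CBL -0.097. On log2(TPM + 0.1) without a filter, 2667 genes were called, among them 1 member lower, 2 immunoglobulin genes higher and 4 lower, and 11 pathway genes higher. EPCAM (-0.71) and CADM1 (-0.33) were not called, NCAM1 was 0.23 and CBL -0.10. CBL was -0.0061 with library size alone, and -0.022 to 0.136 when samples were left out in turn. EPCAM was not called with DESeq2 (-0.68), and ALCAM was called with DESeq2 (-0.56), RLE (-0.56) and no filter (-0.57). At p below 0.05 and a fold change of 1.2, 1 member was called lower on the log2 scale, and 2 members were called higher and 4 lower on the linear scale, which was added after seeing the data. The causes were not tested. Fits with a sample left out have fewer samples, and 7558 genes were called without DKK1-SE-/- replicate 3, beside 5972 in the main fit.

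With CPM (counts scaled to library size) in place of TPM, the shares in DKK1-SE+/+ cells were 0.948% for NFASC, 18.2% for L1CAM, 23.1% for ALCAM, 1.89% for CADM1, 51.1% for MCAM and 1.38% for EPCAM. In DKK1-SE-/- cells they were 31.7% for L1CAM, 27.9% for MCAM, 23.6% for ALCAM, 7.57% for NFASC, 5.51% for BCAM and 1.31% for EPCAM. In CPM MCAM thus does not lead in DKK1-SE-/- cells, as it does in TPM. These shares are not scaled by length. CHL1 and NRCAM, with 0 to 3 counts, are limited by depth, and NCAM1 had 19 to 46 counts in a sample.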
